A study of Mus musculus with 20 samples.

Results

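The transcriptome of the hippocampus was compared between mice that lost the APP gene family in excitatory neurons and their controls. Of the 20 RNA-seq libraries of the series, the 10 hippocampal ones were used, 5 from control mice (called wild type in the labels) and 5 from cTKO mice, all 3 months old. The cTKO mice carried floxed App, Aplp1 and Aplp2 together with a Camk2a-Cre transgene, which is active in forebrain excitatory neurons after birth, and the controls were littermates that were homozygous for the same floxed alleles and had no Cre. Cre itself was therefore present in cTKO mice only, its own effect and that of the deletion cannot be told apart, and both groups had a hybrid background of C57BL/6J and 129 and held both sexes. A library is named here by its genotype and its number in the labels. The files list 24421 genes, and 13702 of them, those with more than 1 CPM (counts scaled to a common library size) in 5 or more libraries, entered the tests. The comparison was made with all 5 libraries of each genotype and again without cTKO library 4, which carries reads of embryonic tissue.

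APP and its relatives APLP1 and APLP2 are membrane proteins of the neuronal surface and synapse, which secretases cut into secreted ectodomains, short peptides and an intracellular domain. The hippocampus holds the granule cells of the dentate gyrus and the pyramidal cells of the CA fields, along with interneurons and glia. Granule cells that fire for long periods are known to change a set of slow genes, among them enkephalin, neuropeptide Y and Bdnf, which differ from the fast immediate early genes that follow a single bout of firing. The dentate gyrus also keeps a pool of newborn neurons, which are marked by genes such as Dcx.

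None of the 3 targeted genes overlapped between genotypes, and all were down-regulated in cTKO mice. App (chr16:84952666-85175255 in GRCm38) measured 1643, 1520, 1375, 1529 and 1514 CPM in control libraries 1 to 5 and 440, 434, 430, 447 and 459 CPM in cTKO libraries 1 to 5. Aplp1 (chr7:30434980-30445582) lay between 1132 and 1337 CPM in controls and between 282 and 360 CPM in cTKO mice. Aplp2 (chr9:31149557-31211848) lay between 492 and 677 CPM in controls and between 235 and 294 CPM in cTKO mice. Without cTKO library 4, the log2 fold changes were -1.79 ± 0.065 for App (SE, FDR 3.34e-08), -1.88 ± 0.070 for Aplp1 (FDR 3.34e-08) and -1.22 ± 0.10 for Aplp2 (FDR 1.18e-04). Glia, interneurons and other cells without Cre keep these genes, and in whole tissue fewer cells of a type and less RNA per cell cannot be told apart. Genes of hippocampal identity summed to between 1199 and 1411 CPM in the 10 hippocampal libraries, with 465 to 511 CPM in the control neocortex.

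Total counts lay between 19552353 and 25331954 per library, and 3 counts, taken as the smallest level a library can show, came to between 0.123 and 0.156 CPM. This limit covers counting error only. cTKO library 4 stood apart from the other 9 libraries. Its median distance to them, taken over the 500 genes that differed most in log2 CPM between a pair of libraries, was 1.91, against 1.26 to 1.54 for the others. The sum of 3 embryonic globin genes was 188 CPM in this library (3943 counts) and between 0.306 and 1.15 CPM in the other 9. The 39 Hox genes summed to 32.1 CPM there, with 23 of them counted, and to between 0.301 and 1.03 CPM elsewhere. H19, an RNA of fetal tissue, measured 194.5 CPM against 0.677 to 1.92 CPM, and the genes of dividing cells Top2a and Mki67 measured 45.2 and 30.9 CPM against highest values of 2.70 and 3.00 CPM in the other libraries. How these reads entered the library was not tested.

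**Figure D1:**
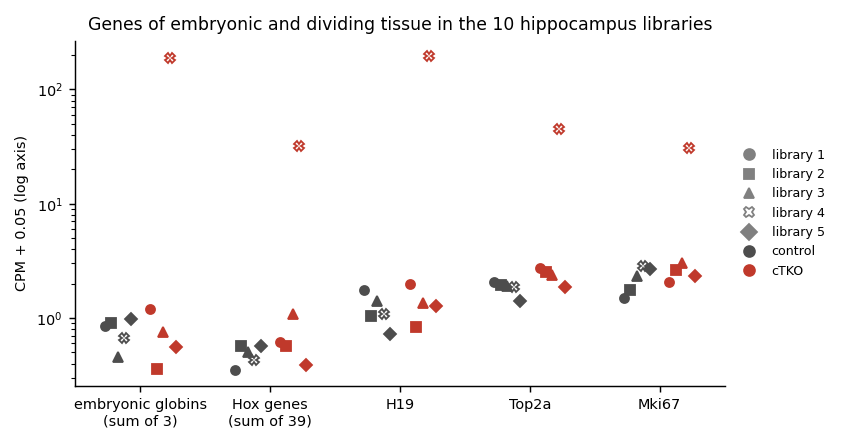
Levels of 3 embryonic globin genes summed, 39 Hox genes summed, H19, Top2a and Mki67 in each hippocampal library, in CPM plus 0.05 on a log axis, with controls in grey, cTKO in red and a marker shape for each library number. The open cross of cTKO library 4 lies above the other 9 libraries in all 5 columns, at 188 CPM for the globins and 194.5 CPM for H19.

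With 5 libraries against 5, 67 genes had an FDR under 0.05 (edgeR, quasi-likelihood) and are called DEGs, of which 43 were up-regulated (0.314% of the genes tested) and 24 down-regulated in cTKO mice (0.175%). Without cTKO library 4, 66 genes were DEGs, 41 of them up-regulated (0.299%) and 25 down-regulated (0.182%). The 2 fits shared 57 genes, 36 up-regulated and 21 down-regulated. The median log2 fold change over all genes was 0.0049 with the library and -0.0029 without it. What the library altered most was the tail of large fold changes. With it, 80 genes had a log2 fold change above 1, and without it 36 of these were still above 1 while 27 lay within 0.5 of 0. H19 went from 5.10 to 0.18. Of the 47 genes below -1, 43 stayed below -1.

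**Figure D2:**
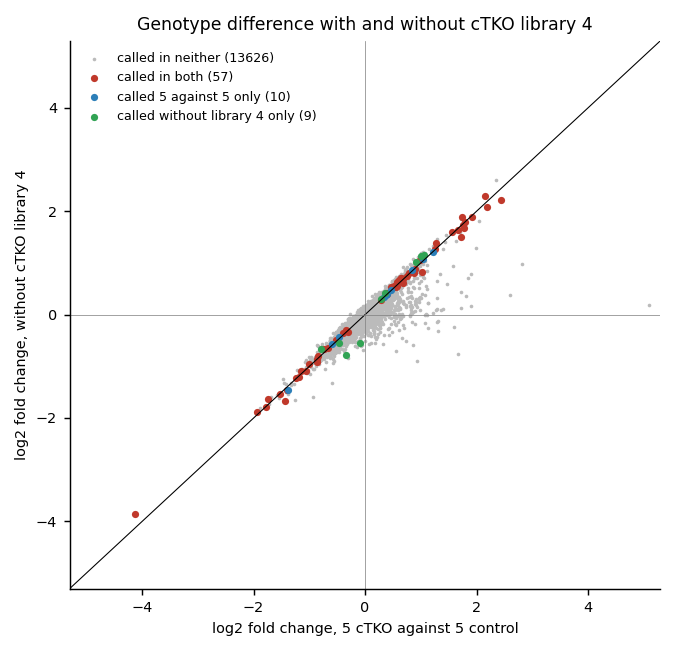
Log2 fold change of each of the 13702 tested genes, cTKO against control, with 5 libraries against 5 (horizontal) and without cTKO library 4 (vertical), with the diagonal drawn. The 57 genes called in both fits lie along the diagonal, while many grey points on the right, H19 the farthest, fall towards 0 on the vertical axis.

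The 10 genes called only with library 4 missed the threshold narrowly without it, at an FDR between 0.0523 and 0.0754. Bdnf (log2 fold change 1.21 in both fits), Sox11 (1.04 and 1.07), Plekha2 (0.84 and 0.87) and Lpin2 (0.40 and 0.40) were among the 7 up-regulated ones, and Npas4 (-1.38 and -1.46), Ltk (-0.60 and -0.56) and Camkk2 (-0.47 and -0.44) were the 3 down-regulated ones. The genes Plekha2 and Camkk2 overlap 5830408C22Rik and P2rx4, with which they could share reads. Of the 9 genes called only without it, Igfbp5 and Fbn1 had the widest gap between the fits. Igfbp5, which binds insulin-like growth factors, measured 543 CPM in library 4 and between 175 and 205.5 CPM in the other cTKO libraries, below the 242 to 311 CPM of controls, so that its log2 fold change went from -0.09 (FDR 0.950) to -0.54 (FDR 0.0141). Fbn1, a fibrillin of the extracellular matrix, measured 23.0 CPM in library 4, 7.59 to 9.66 CPM in the other cTKO libraries and 11.3 to 16.7 CPM in controls, with log2 fold changes of -0.33 (FDR 0.722) and -0.78 (FDR 0.0316). The values below are from the fit without library 4, and the CPM of all 10 libraries are given. Among the DEGs of this fit, 39 of the 41 up-regulated genes had all 5 cTKO libraries, library 4 included, above the controls, as had 265 of all genes tested (1.93%), and 22 of the 25 down-regulated genes had all 5 below, as had 169 of all genes (1.23%). These DEGs were called from the same controls and cTKO libraries 1, 2, 3 and 5, and each of these libraries lay beyond the controls in all 41 and all 25. The contrast with all genes is thus set by the choice of genes and is no test. Library 4, which did not enter the fit, lay above the controls in 39 and below them in 22, and over all 13702 genes in 3543 and 3617. Without overlap, the two-sided p from exact permutation of the labels was 0.00794, which is also the lower limit for the 252 splits of 5 against 5. For DEGs, which were chosen by their p in these libraries, it adds no support.

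Most changes were of moderate size. The median log2 fold change was 0.81 among the up-regulated DEGs and -0.92 among the down-regulated ones, with 17 above 1 and 11 below -1. Beyond the DEGs, 819 genes (5.98%) were higher and 805 (5.88%) lower in cTKO mice at an unadjusted p under 0.05, and the 100 genes with the smallest p held 66 that were higher and 34 that were lower. The effect was smallest in cTKO library 5. The median deviation of the up-regulated DEGs from the control mean of log2 CPM was 0.84, 0.74, 0.90, 0.64 and 0.54 in cTKO libraries 1 to 5. Without library 5 as well as library 4, 158 genes were DEGs in place of 66, and without control library 4 only 25 were, so the length of the list depended on single libraries. It also moved by over 1.5 times without control library 1, 2 or 3 (28, 29 and 35 DEGs) and without cTKO library 2 (36 DEGs).

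Proenkephalin and the D1 dopamine receptor were among the up-regulated genes with the smallest p values. Penk (chr4:4133536-4138815), the precursor of the opioid enkephalins, measured 29.8, 35.4, 31.3, 33.0 and 39.0 CPM in the controls and 165, 182, 170.0, 281 and 111 CPM in cTKO mice. The lowest cTKO library thus lay far above the highest control, and Penk was up-regulated 4.64-fold (log2 fold change 2.21 ± 0.13, SE, FDR 4.98e-06). Drd1 (chr13:54051183-54055658), the dopamine receptor that raises cyclic AMP, measured 4.36, 5.10, 4.804, 4.88 and 4.63 CPM in the controls and 15.4, 19.8, 22.7, 19.4 and 12.7 CPM in cTKO mice. It was up-regulated 3.69-fold (log2 fold change 1.88 ± 0.16, FDR 1.18e-04). Both genes are also known as markers of striatal neurons. Of the other 13 striatal markers tested, 0 were DEGs. Adora2a lay between 1.04 and 2.01 CPM in controls and between 0.961 and 1.88 CPM in cTKO mice, and Tac1 between 6.48 and 9.01 CPM and between 6.63 and 8.63 CPM.

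Of the receptors of other neuropeptides, Rxfp3 and Prokr2 were up-regulated. Mc4r, a peptide receptor outside the list counted here, was down-regulated (log2 fold change -0.96, FDR 0.0357) and is described below. Rxfp3, the receptor of relaxin-3, measured 5.92, 3.64, 3.63, 3.56 and 4.48 CPM in the controls and 6.92, 8.21, 10.3, 6.20 and 12.6 CPM in cTKO mice (log2 fold change 1.16 ± 0.20, FDR 0.0310). Prokr2, a prokineticin receptor of immature neurons, measured 6.22, 6.08, 4.12, 5.54 and 4.32 CPM in the controls and 14.6, 10.4, 9.29, 6.44 and 8.39 CPM in cTKO mice (log2 fold change 1.02 ± 0.18, FDR 0.0357). Library 4 was the lowest cTKO library for both genes, and neither was a DEG with it, at an FDR of 0.0520 and 0.0861. They were the 2 DEGs among 26 peptide and opioid receptors tested, of which 6 were higher and 3 lower at an unadjusted p under 0.05, with a median log2 fold change of -0.0070. The shares over all genes tested were 5.98% higher and 5.88% lower at that p, and 0.299% were up-regulated DEGs.

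Neuropeptides and granins held changes in both directions. Of 26 tested, Penk was up-regulated and Nts down-regulated, and 10 were higher and 4 lower at an unadjusted p under 0.05, with a median log2 fold change of 0.058. The shares over all genes tested were 5.98% and 5.88% at that p, with 0.299% up-regulated and 0.182% down-regulated DEGs. Nts, the precursor of neurotensin, measured 9.18, 8.31, 10.1, 8.96 and 9.63 CPM in the controls and 6.79, 4.81, 4.65, 4.44 and 4.94 CPM in cTKO mice (log2 fold change -0.81 ± 0.13, FDR 0.0238). The other peptides did not pass the test. Npy had a log2 fold change of 1.33 (FDR 0.0754), Grp, the gastrin-releasing peptide, of 0.95 (FDR 0.201) and Scg2, a granin of dense-core vesicles, of 0.41 (FDR 0.167). Cort, which encodes cortistatin, had one of -0.93 (FDR 0.0747) and Pdyn, the precursor of the dynorphins, one of -0.85 (FDR 0.173). The genotypes did not overlap for Cort, Pdyn, Grp and Scg2, nor for Chgb, which was higher, and Cck, which was lower. Over all genes tested, all 5 cTKO libraries lay above the controls in 1.93% and below them in 1.23%.

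The activin receptor gene Acvr1c and the ligand gene Bmp3 were up-regulated. Acvr1c (chr2:58267453-58357896), a type I receptor of activins and nodal, measured 23.5, 21.6, 25.3, 21.0 and 22.0 CPM in the controls and 63.0, 43.1, 72.1, 51.6 and 41.1 CPM in cTKO mice (log2 fold change 1.27 ± 0.15, FDR 0.00446). Bmp3, a ligand of the BMP family, measured 4.36, 2.31, 3.90, 2.80 and 3.38 CPM in the controls and 13.0, 11.7, 18.1, 5.87 and 7.30 CPM in cTKO mice (log2 fold change 1.90 ± 0.25, FDR 0.00753). Acvr1, a type I receptor of BMPs, was up-regulated by 0.67 on the log2 scale (FDR 0.0166), and it is named here after its value was seen. Related genes did not pass the test, with log2 fold changes of -0.61 for Bmp7 (FDR 0.419), -0.62 for Bmp6 (FDR 0.549), -0.17 for Bmp2, -0.046 for Bmp4, -0.029 for Inhbb and -0.40 for Fst. The groups did not overlap for Acvr1c or Bmp3, and library 4 was the lowest cTKO library for Bmp3.

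Of 66 tested genes of the extracellular matrix, growth factors and proteases, 4 were up-regulated and 1, Igfbp5, was down-regulated, and 14 were higher and 5 lower at an unadjusted p under 0.05. Their median log2 fold change was 0.011. Over all genes tested, 5.98% were higher and 5.88% lower at that p. The list was chosen with earlier results of these data known, so its counts describe it and are no test. It holds genes that the study reports as changed, such as Adamts18, Bmp3, Tll1, Col27a1, Ecm1, Prss23, Serpinf1 and Bdnf. Adamts18, a secreted metalloprotease, lay between 0.853 and 1.46 CPM in controls and between 2.49 and 4.58 CPM in cTKO mice (log2 fold change 1.64 ± 0.23, FDR 0.0095). Col6a1, a chain of collagen VI, measured 18.8, 14.7, 21.1, 11.8 and 11.6 CPM in the controls and 42.2, 79.6, 26.0, 40.1 and 43.1 CPM in cTKO mice (log2 fold change 1.61 ± 0.28, FDR 0.0316). Igfbp6 lay between 10.5 and 16.6 CPM in controls and between 15.98 and 40.4 CPM in cTKO mice, where library 4 was the lowest and fell within the control range (log2 fold change 1.13 ± 0.18, FDR 0.0171 without it and 0.0568 with it).

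**Figure D3:**
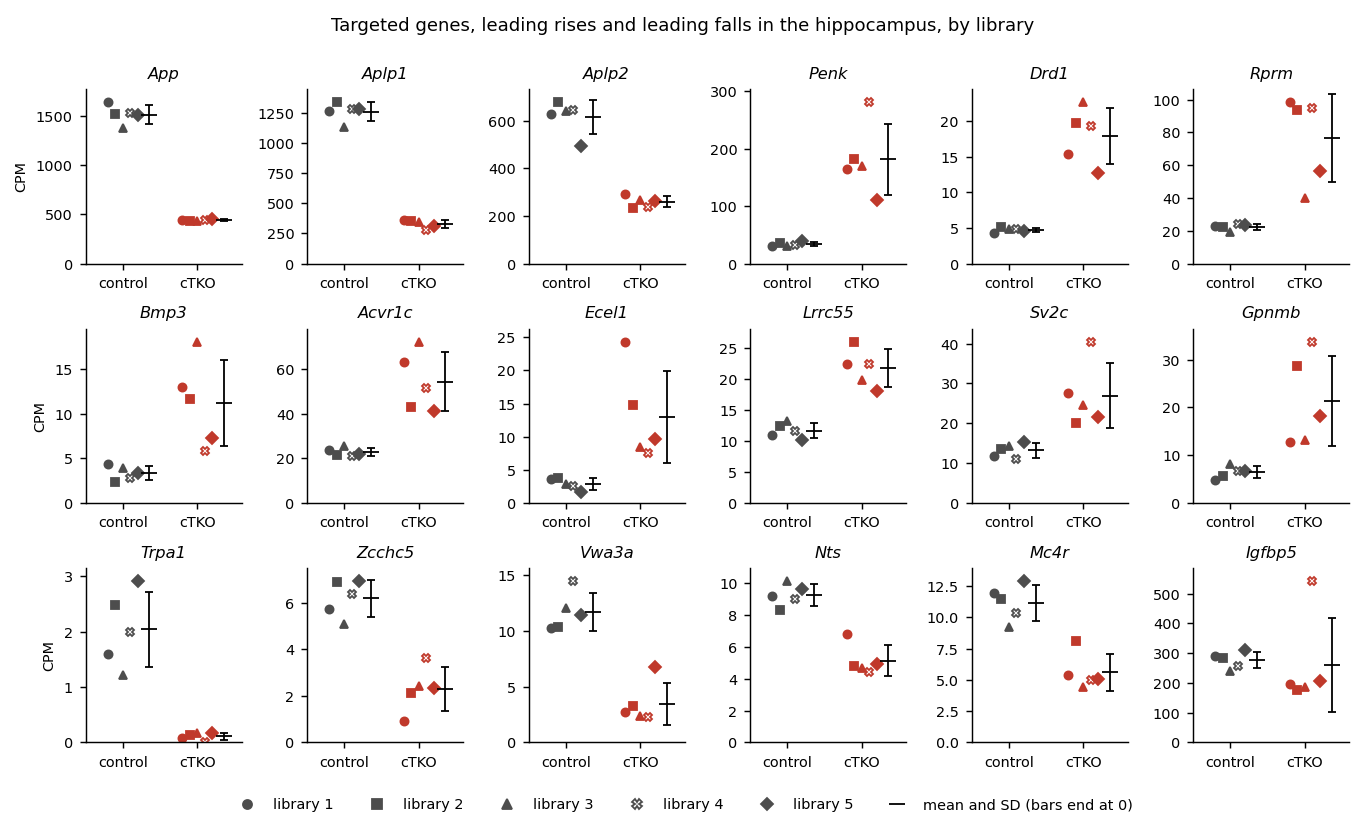
Levels in CPM of the 3 targeted genes, 9 leading up-regulated genes and 6 leading down-regulated genes in each hippocampal library, with controls in grey, cTKO in red, a marker shape for each library number and the mean and SD beside the points. Penk and Drd1 show no overlap between 5 control and 5 cTKO libraries, and the open cross of cTKO library 4 lies away from the other cTKO libraries in Igfbp5.

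Among ion channel genes, 2 auxiliary subunits of potassium channels were up-regulated. Lrrc55, an auxiliary subunit of large-conductance calcium-activated channels, measured 10.9, 12.3, 13.2, 11.6 and 10.2 CPM in the controls and 22.3, 25.9, 19.8, 22.3 and 17.97 CPM in cTKO mice (log2 fold change 0.88 ± 0.12, FDR 0.00843). Kcnip3, which binds Kv4 channels and is also known as a partner of the presenilins, lay between 81.2 and 106 CPM in controls and between 119 and 177 CPM in cTKO mice (log2 fold change 0.67 ± 0.11, FDR 0.0175). Of 56 potassium and HCN channel genes tested, 9 were higher and 12 lower at an unadjusted p under 0.05, with a median log2 fold change of 0.0064. The shares over all genes tested were 5.98% and 5.88% at that p. As DEGs, 0.299% of all genes were up-regulated and 0.182% down-regulated. In the sodium, calcium and TRP channel list, Trpa1 was the 1 DEG of 43 genes tested, and 5 were higher and 7 lower at an unadjusted p under 0.05.

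Trpa1, a cation channel that responds to irritants, was down-regulated, and it entered the test through its level in the 5 controls only. It was counted 27 to 58 times in each control library and 0 to 4 times in each cTKO library, 215 and 13 counts in all. In CPM, it measured 1.605, 2.48, 1.22, 1.99 and 2.92 in controls and 0.082, 0.13, 0.16, 0 and 0.17 in cTKO mice (log2 fold change -3.85 ± 0.37, FDR 5.28e-04). The cTKO levels lay at about 3 counts, the limit of the depth, so the size of the fold change is set by very few reads.

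Some synaptic genes were DEGs. Of 50 presynaptic release genes tested, Sv2c was up-regulated and Ppfia3 down-regulated, and of 45 postsynaptic scaffold and signalling genes, 1, Rgs4, was up-regulated. Over all genes tested, 0.299% were up-regulated and 0.182% down-regulated. At an unadjusted p under 0.05, 11 presynaptic genes were higher and 6 lower. Of the postsynaptic ones, 4 were higher and 8 lower (all genes, 5.98% and 5.88%). The median log2 fold changes of these lists were 0.041 and -0.031, and 0 of 34 genes of glutamate receptors and their auxiliary subunits and 0 of 22 genes of GABA receptors, synthesis and transport were DEGs in edgeR's test, with 5 and 6 genes, respectively, at an unadjusted p under 0.05. Sv2c, a glycoprotein of synaptic vesicles, measured 11.7, 13.4, 14.4, 11.1 and 15.4 CPM in the controls and 27.7, 20.05, 24.6, 40.5 and 21.6 CPM in cTKO mice (log2 fold change 0.83 ± 0.12, FDR 0.0122). Ppfia3, a liprin of the active zone, lay between 171 and 189 CPM in controls and between 128 and 150.2 CPM in cTKO mice (log2 fold change -0.30 ± 0.058, FDR 0.0442). Part of its reads could belong to the overlapping Mtag2, since whether reads were counted by strand is not given in the sources used here.

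Several genes with little known function in the hippocampus ranked among the first up-regulated DEGs. Ppl, which encodes the junction protein periplakin, measured 2.36, 2.31, 4.30, 3.65 and 3.07 CPM in the controls and 10.03, 13.1, 12.7, 11.3 and 7.59 CPM in cTKO mice (log2 fold change 1.78 ± 0.21, FDR 0.00438). Rprm, known as an arrest gene of the cell cycle downstream of p53, measured 22.8, 22.1, 19.5, 24.3 and 23.6 CPM in the controls and 98.5, 94.0, 39.8, 94.8 and 56.4 CPM in cTKO mice (log2 fold change 1.68 ± 0.22, FDR 0.00753). Ecel1, a membrane peptidase of the neprilysin family, lay between 1.61 and 3.73 CPM in the controls and at 24.4, 14.8, 8.51, 7.49 and 9.66 CPM in cTKO mice (log2 fold change 2.30 ± 0.32, FDR 0.0095). Mme, which encodes neprilysin itself, measured 7.67, 6.68, 6.03, 8.01 and 10.7 CPM in the controls and 4.62, 5.11, 4.85, 5.39 and 9.998 CPM in cTKO mice, and its log2 fold change of -0.35 ± 0.24 did not pass the test (FDR 0.632). Only cTKO library 5 lay within the control range, and the other cTKO libraries lay below all controls. Over 17 alternatives the log2 fold change ran from -0.69 to -0.22 and the FDR from 0.0993 to 0.829. The study reported this gene (Nep) as lower in the cTKO hippocampus by quantitative PCR. In its RNA-seq data the fall was significant only after 1 cTKO mouse was left out.

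Smaller but tight increases were found for a group of signalling genes. Sh3bgrl3, a small thioredoxin-like protein, lay between 139 and 148 CPM in controls and between 165 and 223 CPM in cTKO mice (log2 fold change 0.53 ± 0.067, FDR 0.00669). Sh2d5, an adaptor with an SH2 domain, lay between 52.9 and 58.6 CPM in controls and between 72.7 and 108 CPM in cTKO mice (log2 fold change 0.68 ± 0.095, FDR 0.0095). Rasl10a, a small GTPase whose gene overlaps Gas2l1, lay between 31.5 and 43.2 CPM and between 47.0 and 65.3 CPM (log2 fold change 0.70 ± 0.093, FDR 0.00753). Ptchd1, a membrane protein related to the Hedgehog receptor, lay between 7.82 and 9.20 CPM and between 13.5 and 18.9 CPM (log2 fold change 0.81 ± 0.11, FDR 0.0095). Bhlhe41, a repressor of the circadian clock, lay between 48.5 and 60.7 CPM and between 74.8 and 122 CPM (log2 fold change 0.81 ± 0.13, FDR 0.0171). It was the 1 DEG of 19 circadian and PAR bZIP genes (all genes tested, 0.299% up-regulated), whose median log2 fold change was -0.14.

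Among genes of neuronal activity, 2 of the slow ones and 1 of the fast ones were DEGs. Over all genes tested, 0.299% were up-regulated and 0.182% down-regulated. At an unadjusted p under 0.05, 5.98% of all genes were higher and 5.88% lower. Of 16 late activity genes tested, Penk and Rgs4 were up-regulated, 10 were higher and 1 lower at an unadjusted p under 0.05, 14 had a positive log2 fold change, and the median was 0.53 (all genes tested, -0.0029). In 4 of the 16, all 5 cTKO libraries lay above the controls, as in 1.93% of all genes tested. Tac1 (log2 fold change -0.012), Sorcs3 (0.11) and Nptx1 (0.16) were among those that did not pass. Of 32 immediate early and fast activity genes tested, Ier5 was up-regulated, 5 were higher and 3 lower at an unadjusted p under 0.05, and the median was 0.032. Whether the lists differed from each other was not tested.

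Rgs4, which shortens G protein signalling, measured 202, 182, 175, 164 and 188.5 CPM in the controls and 269, 302, 425, 293 and 241 CPM in cTKO mice (log2 fold change 0.76 ± 0.14, FDR 0.0357). Bdnf, the neurotrophin, measured 44.4, 43.0, 47.1, 39.4 and 42.5 CPM in the controls and 91.3, 98.9, 163, 98.2 and 49.8 CPM in cTKO mice (log2 fold change 1.21 ± 0.24, FDR 0.0546, and 0.0347 with library 4). Npy measured between 64.1 and 81.0 CPM in the controls and 249, 278, 136, 144 and 79.8 CPM in cTKO mice. All 5 cTKO libraries of Rgs4 and Bdnf lay above the controls, and for Npy library 5 fell within the control range.

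Nptx2, a pentraxin that gathers AMPA receptors, had a log2 fold change of 1.85 (FDR 0.111), at 50.6, 48.4, 171, 41.2 and 22.7 CPM in cTKO mice and 15.9 to 27.3 CPM in controls. Vgf, a granin-like growth factor precursor, had one of 0.64 (FDR 0.201), and Inhba, a subunit of activin, had one of 1.46 (FDR 0.347). Library 3 was the highest of the 10 for Nptx2, Vgf and Inhba, and library 5 lay within the control range for Nptx2 and Vgf and below it for Inhba. Calb1, the calcium buffer calbindin of granule and CA1 cells, was the 1 member that was lower at an unadjusted p under 0.05, at 132 to 177 CPM in the controls and 83.3 to 120.0 CPM in cTKO mice, and its log2 fold change of -0.48 did not pass the test (FDR 0.0816).

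The fast genes differed between libraries more than between genotypes. In cTKO library 3, 14 of the 32 fast activity genes had their highest value of the 10 libraries, and the sum of the list was 3395 CPM, against 1340 to 1552 CPM in the other cTKO libraries and 1377 to 2055 CPM in controls. Egr3 measured 903 CPM there and between 135 and 169.6 CPM in the other 9 libraries. Ier5 measured 29.7, 31.3, 27.3, 32.4 and 32.0 CPM in the controls and 62.7, 55.4, 93.1, 47.6 and 45.1 CPM in cTKO mice, with all 5 above the controls (log2 fold change 1.06 ± 0.16, FDR 0.0166). Npas4, an activity-dependent transcription factor, went the other way, at 23.1, 19.6, 9.56, 13.8 and 19.7 CPM in the controls and 6.34, 5.90, 9.25, 8.01 and 3.42 CPM in cTKO mice, and library 3 was not set apart in it (log2 fold change -1.46 ± 0.29, FDR 0.0543). Btg2 had a log2 fold change of -0.55 (FDR 0.0883) and no overlap between the genotypes.

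**Figure D4:**
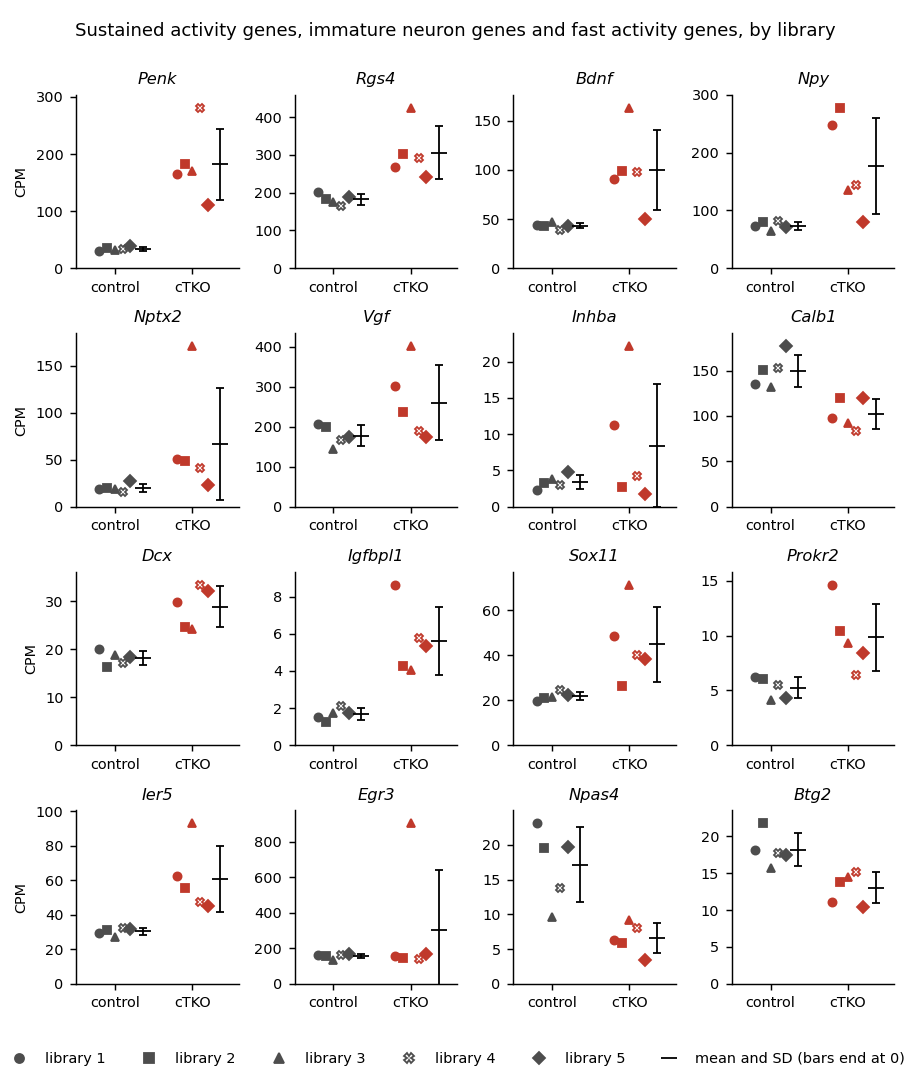
Levels in CPM of 8 slow activity genes (Penk to Calb1), 4 immature neuron genes (Dcx to Prokr2) and 4 fast activity genes (Ier5 to Btg2) in each hippocampal library, with controls in grey, cTKO in red, a marker shape for each library number and the mean and SD beside the points. cTKO library 3 (triangle) is the highest in Nptx2, Vgf, Inhba and Egr3, and cTKO library 5 (diamond) is the lowest cTKO library in Penk, Rgs4, Bdnf and Npy.

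Part of the genes of immature neurons were up-regulated. Of 12 markers of immature neurons and neurogenesis tested, 3 were up-regulated (0.299% of all genes tested). At an unadjusted p under 0.05, 6 were higher and 0 lower (all genes, 5.98% and 5.88%). The median log2 fold change was 0.28. Dcx, the microtubule protein of newborn neurons, measured 19.96, 16.4, 18.8, 17.1 and 18.4 CPM in the controls and 29.9, 24.7, 24.2, 33.4 and 32.2 CPM in cTKO mice (log2 fold change 0.61 ± 0.10, FDR 0.0244). Igfbpl1, whose gene overlaps Stra6l, measured 1.504, 1.24, 1.72, 2.13 and 1.72 CPM in the controls and 8.63, 4.28, 4.07, 5.77 and 5.36 CPM in cTKO mice (log2 fold change 1.74 ± 0.25, FDR 0.0095). With Prokr2 they were the 3 DEGs, and all 5 cTKO libraries lay above the controls in each, as in 1.93% of all genes tested. All of these libraries but library 4 also entered the fit that called the 3 genes.

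Sox11, a transcription factor of immature neurons, lay between 19.6 and 24.5 CPM in controls and measured 48.4, 26.3, 71.5, 40.1 and 38.5 CPM in cTKO mice (log2 fold change 1.07 ± 0.22, FDR 0.0596, and 0.0456 with library 4). Draxin, a guidance factor (log2 fold change 0.76, FDR 0.302), and Calb2, the calcium buffer calretinin (0.40, FDR 0.407), were the other members at an unadjusted p under 0.05. Among the remaining ones, Neurod1 had a log2 fold change of 0.034, Sox4 of 0.11 and Neurog2 of -0.095. Of 16 mitotic genes tested, 0 were DEGs in edgeR's test and 2 were higher at an unadjusted p under 0.05 (5.98% of all genes tested). The median of the mitotic genes was 0.14 without library 4 and 1.03 with it.

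The down-regulated DEGs included a retrotransposon-derived gene, a peptide receptor and a matrix gene. Zcchc5, which is Rtl3 in RefSeq and derives from a retrotransposon, measured 5.72, 6.90, 5.08, 6.35 and 6.92 CPM in the controls and 0.941, 2.14, 2.43, 3.63 and 2.32 CPM in cTKO mice (log2 fold change -1.67 ± 0.24, FDR 0.0095). Mc4r, the melanocortin 4 receptor, measured 11.98, 11.5, 9.20, 10.4 and 12.9 CPM in the controls and 5.36, 8.13, 4.44, 4.96 and 5.10 CPM in cTKO mice (log2 fold change -0.96 ± 0.17, FDR 0.0357). Ecm2, a matrix protein whose gene overlaps Cenpp, lay between 11.4 and 18.9 CPM in controls and between 4.13 and 8.77 CPM in cTKO mice (log2 fold change -1.20 ± 0.20, FDR 0.0244). The groups did not overlap for any of these 3 genes.

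Ifi203, an interferon-inducible gene, lay between 4.53 and 6.80 CPM in controls and between 2.05 and 3.16 CPM in cTKO mice (log2 fold change -1.09 ± 0.19, FDR 0.0258). Vwa5b1 lay between 2.41 and 4.804 CPM and between 0.917 and 1.27 CPM (log2 fold change -1.53 ± 0.25, FDR 0.0189). Aldh2, a mitochondrial aldehyde dehydrogenase, had one of the smallest and tightest changes, from between 102 and 108 CPM to between 69.7 and 88.0 CPM (log2 fold change -0.36 ± 0.058, FDR 0.0195). Fxyd7, a regulator of the sodium pump, lay between 22.1 and 30.7 CPM in controls and between 8.68 and 19.3 CPM in cTKO mice (log2 fold change -0.66 ± 0.11, FDR 0.0231 without library 4, and -0.80, FDR 0.0709, with it). Lamp5, a membrane protein of interneurons and of upper-layer neocortical neurons, lay between 35.9 and 45.1 CPM in controls and between 25.3 and 32.1 CPM in cTKO mice (log2 fold change -0.49 ± 0.089, FDR 0.0357).

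Vwa3a, a gene of motile cilia, measured 10.2, 10.4, 12.01, 14.5 and 11.4 CPM in the controls and 2.70, 3.23, 2.38, 2.29 and 6.75 CPM in cTKO mice (log2 fold change -1.64 ± 0.27, FDR 0.0199). It was the 1 DEG of 15 ependymal cilia markers tested, of which 4 were lower at an unadjusted p under 0.05 and 15 had a negative log2 fold change, with a median of -0.51. The shares over all genes tested were 5.88% lower at that p and 0.182% down-regulated. The list summed to 100.8 and 104 CPM in control libraries 1 and 3, to between 66.2 and 70.3 CPM in the other controls and to between 45.3 and 68.1 CPM in cTKO mice. Without Vwa3a, the other 14 summed to between 53.7 and 89.0 CPM in controls and between 41.5 and 59.4 CPM in cTKO mice, so that these groups overlapped. Their part in the fall of Vwa3a was not tested.

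The lists of choroid plexus and hippocampal field markers held 0 DEGs, while the choroid plexus and CA1 lists leaned to lower values. Choroid plexus markers had a negative log2 fold change in 13 of 13, with a median of -1.54, and 0 were DEGs and 1 was lower at an unadjusted p under 0.05. Their sum was 4238 CPM in control library 3, between 238 and 881 CPM in the other controls and between 318 and 1057 CPM in cTKO mice. The markers of CA1 pyramidal cells had a median of -0.31, with 0 DEGs, and 10 of 11 had a negative log2 fold change. At an unadjusted p under 0.05, 5 of 11 were lower (5.88% of all genes tested). Mpped1 and Lefty1 did not overlap between the genotypes. The sums of the CA1 list overlapped, from 963 to 1288 CPM in controls and from 687 to 992 CPM in cTKO mice. Those of dentate granule cells had a median of -0.048, with 0 DEGs, and summed to between 1172 and 1606 CPM in controls and between 1185 and 1692 CPM in cTKO mice. CA2 and CA3 markers had a median of 0.049. Of 9 thalamic and hypothalamic markers, 8 had a negative log2 fold change, and 5 were lower and 1 higher at an unadjusted p under 0.05 (all genes tested, 5.88% and 5.98%). Of 14 neocortical markers, 11 were negative and 4 lower at that p, with Lamp5 the 1 DEG.

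Among microglia markers, Gpnmb was the 1 DEG of 24 tested. This glycoprotein of lysosome-rich phagocytes measured 4.91, 5.61, 8.16, 6.73 and 6.77 CPM in the controls and 12.7, 28.7, 13.2, 33.8 and 18.2 CPM in cTKO mice (log2 fold change 1.49 ± 0.23, FDR 0.0171). At an unadjusted p under 0.05, 4 of the 24 were higher (Blnk, Gpnmb, Rab32 and Cd68) and 2 lower (Csf1r and Nrros). Over all genes tested, the shares were 5.98% and 5.88%. The list as a whole had a median of -0.11, 18 of its 24 genes had a negative log2 fold change, and it summed to between 2336 and 3059 CPM in controls and between 1947 and 2840 CPM in cTKO mice. The markers of astrocytes and of the oligodendrocyte lineage had medians of -0.051 and -0.0038 with 0 DEGs each, and 4 and 2 genes at an unadjusted p under 0.05. Endothelial and pericyte markers had a median of -0.26 and 0 DEGs, with 14 of 16 negative and 5 of 16 lower at an unadjusted p under 0.05. They summed to between 377 and 584.5 CPM in controls and between 353 and 491.5 CPM in cTKO mice. Interneuron markers had a median of 0.0045, with Lamp5 the 1 DEG of 18. At an unadjusted p under 0.05, 5 of them were higher (Gad1, Gad2, Slc32a1, Calb2 and Lhx6) and 2 lower (Cck and Lamp5).

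**Figure D5:**
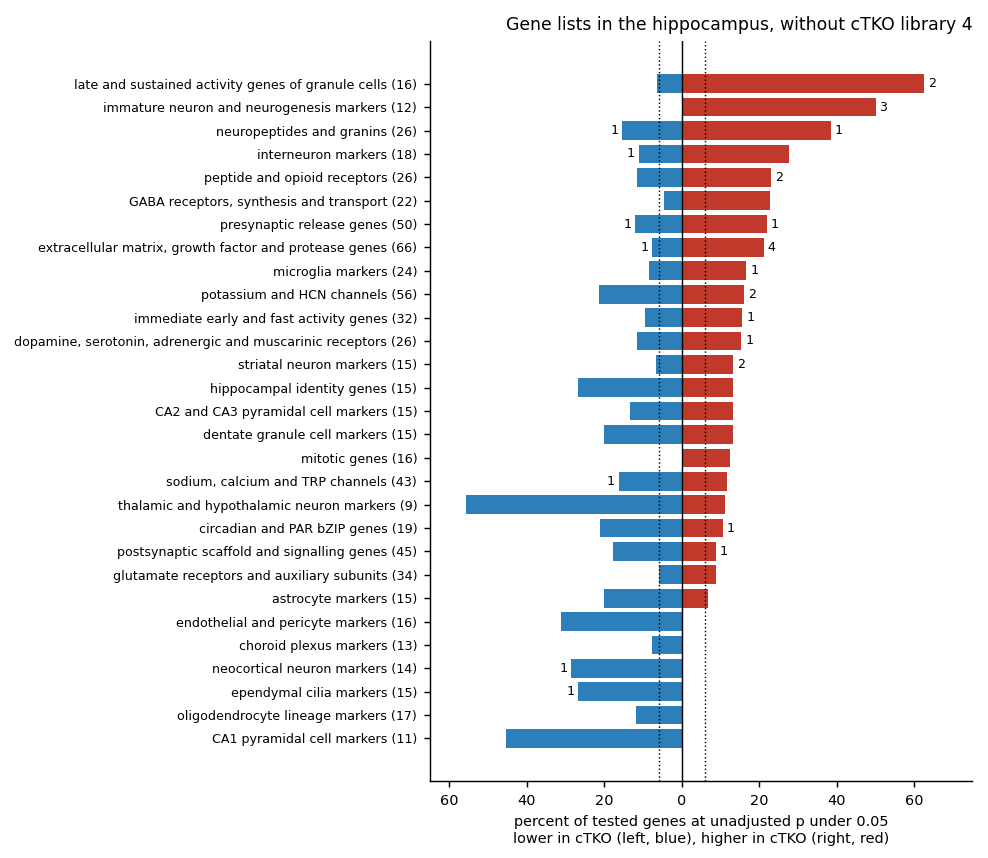
Share of the tested genes (number in brackets) of each list drawn, all but the targeted genes and the globin and Hox lists, that were higher (right, red) or lower (left, blue) in cTKO mice at an unadjusted p under 0.05, without cTKO library 4, with the DEGs written at the bar ends and dotted lines at the shares over all genes, 5.98% and 5.88%. The late activity list (10 of 16) and the immature neuron list (6 of 12) reach farthest to the right, and of the lists drawn, the thalamic and hypothalamic list (5 of 9) and the CA1 list (5 of 11) farthest to the left.

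Which hippocampal changes differed from those in the neocortex was asked with an interaction term of region and genotype. Without cTKO hippocampus library 4 and cTKO neocortex library 5, which holds embryonic reads too, 11 of 14192 genes differed at an FDR of 0.05 (0.0775%), 8 with a higher and 3 with a lower log2 fold change in the hippocampus. This fit takes the libraries of the regions as independent. The deviations of hippocampus and neocortex libraries with the same number were correlated in this set, at 0.110 to 0.333 for the 5 controls and 0.324 to 0.380 for cTKO numbers 1 to 3, and with the number as a block within genotype 31 genes differed, 10 of the 11 among them. The smallest FDR was that of Lrrc55, whose log2 fold change was larger in the hippocampus by 1.07 ± 0.14 (FDR 0.00272), and whose mean level in the neocortex was 31.04 CPM in the controls and 27.3 CPM in cTKO mice. The difference was 1.62 ± 0.24 for Penk (FDR 0.00716), 1.02 ± 0.15 for Ptchd1 (FDR 0.00716), 1.48 ± 0.25 for Drd1 (FDR 0.0227) and 1.87 ± 0.35 for Ppl (FDR 0.0437). Rprm and Sh2d5 differed by 1.41 ± 0.26 (FDR 0.0437) and 0.67 ± 0.12 (FDR 0.0422). Over all 20 libraries 8 genes differed, and Ppl, Sh2d5 and Fbn1 did not pass (FDR 0.0525, 0.0525 and 1.0).

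For Penk and Drd1, the control hippocampus held far less than the control neocortex. This was not particular to them. Control means in hippocampus and neocortex were 11.65 and 31.04 CPM for Lrrc55, 8.76 and 27.4 CPM for Ptchd1, 22.5 and 44.5 CPM for Rprm and 55.8 and 84.5 CPM for Sh2d5. Ppl went the other way, at 3.14 and 2.04 CPM. Penk lay between 29.8 and 39.0 CPM in the control hippocampus and between 111 and 184 CPM in the control neocortex, a range that the cTKO hippocampus reached, at 111 to 281 CPM. Drd1 lay between 4.36 and 5.10 CPM in the control hippocampus, between 16.4 and 27.7 CPM in the control neocortex and between 12.7 and 22.7 CPM in the cTKO hippocampus. For Trpa1 the interaction had an FDR of 0.0227, but the neocortex held it at 0 to 0.24 CPM in controls and 0.063 to 0.32 CPM in cTKO mice, at or near the limit of the depth, so a fall could not have been seen there and the size of the difference is no measure. For Fbn1 the log2 fold change of cTKO against control was lower in the hippocampus than in the neocortex by 1.22 ± 0.23 (FDR 0.0437). For Bdnf, Bmp3, Ecel1 and Gpnmb the interaction did not pass the test, and the log2 fold changes in the neocortex were 0.86 for Bdnf (FDR 0.0118), 0.99 for Bmp3 (FDR 0.00536), 1.68 for Ecel1 (FDR 0.00249) and 1.29 for Gpnmb (FDR 0.0257).

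The promoters of DEGs and of the activity lists were searched for the binding letters of transcription factors of neuronal activity. Promoter windows from RefSeq (GRCm38.p6), 250 bases before to 50 after a start site, were found for 10423 of the tested genes and for 39 of the 50 named ones. The cyclic AMP response element TGACGTCA, which reads the same on both strands, was in a window of 375 of these genes (3.60%), and the AP-1 element TGACTCA, on either strand, in a window of 457 (4.38%). Among the up-regulated DEGs with a window, 2 of 33 held the first and 3 of 33, Col6a1, Gpnmb and Kcnip3, the second. Of the down-regulated DEGs, 0 of 18 held the first and 1 of 18, Nts, the second. In the slow activity list, 2 of 9 genes, Pcsk1 and Scg2, held the first and 0 of 9 the second, and 4 of 25 fast activity genes, Arl4d, Btg2, Dusp1 and Maff, held the first. A match is of letters only.

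The 250 bases before the start site are shown for 2 up-regulated genes and 1 down-regulated gene with an AP-1 match and for 1 slow activity gene with a cyclic AMP response element, 5′ to 3′ on the strand of the gene, with the match in capitals. All 4 genes lie on the minus strand. The windows are chr10:76726045-76726294 for Col6a1, chr2:127522095-127522344 for Kcnip3, chr10:102490419-102490668 for Nts and chr1:79440027-79440276 for Scg2.
Col6a1: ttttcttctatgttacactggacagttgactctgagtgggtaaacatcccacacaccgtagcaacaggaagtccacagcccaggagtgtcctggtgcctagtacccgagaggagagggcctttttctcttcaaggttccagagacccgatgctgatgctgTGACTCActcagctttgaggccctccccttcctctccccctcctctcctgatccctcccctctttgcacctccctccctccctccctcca
Kcnip3: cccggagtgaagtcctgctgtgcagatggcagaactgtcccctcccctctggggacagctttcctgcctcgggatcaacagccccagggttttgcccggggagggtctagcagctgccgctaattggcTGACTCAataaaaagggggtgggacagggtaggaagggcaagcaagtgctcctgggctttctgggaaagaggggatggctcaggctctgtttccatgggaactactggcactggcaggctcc
Nts: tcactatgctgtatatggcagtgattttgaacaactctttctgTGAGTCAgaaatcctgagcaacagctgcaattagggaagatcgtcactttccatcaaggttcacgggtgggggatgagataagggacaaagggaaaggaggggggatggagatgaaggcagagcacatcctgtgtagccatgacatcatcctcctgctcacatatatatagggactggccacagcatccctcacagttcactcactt
Scg2: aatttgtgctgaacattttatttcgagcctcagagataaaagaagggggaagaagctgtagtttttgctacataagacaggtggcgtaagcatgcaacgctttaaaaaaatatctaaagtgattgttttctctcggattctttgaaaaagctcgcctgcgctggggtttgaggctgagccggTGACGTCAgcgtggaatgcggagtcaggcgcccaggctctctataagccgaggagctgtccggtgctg
The match begins 90 bases before the start site in Col6a1, 122 bases before it in Kcnip3, 207 bases before it in Nts, where it lies on the opposite strand, and 68 bases before it in Scg2. Kcnip3 has 3 windows in RefSeq, and the one with the match is shown.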

How the data were processed

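RNA of whole hippocampus and neocortex was sequenced as poly-A libraries. Per the study's methods, reads were aligned with STAR 2.5.4a (mm10) and assigned to genes by HTSeq. The authors deposited these raw counts, 1 file per library, not normalized or pooled. The version, annotation and strand setting of the counting are not given in the sources used here. Groups come from the labels.

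Counts were scaled by TMM and tested with edgeR 4.0.16 in R 4.3.3 (estimateDisp, glmQLFit, glmQLFTest), with genotype alone, on genes that passed 1 CPM in 5 or more of the hippocampal libraries, with Benjamini-Hochberg FDR over all of these. The fit without cTKO library 4 used the same 13702 genes. Genes with an FDR under 0.05 are called DEGs. CPM are on TMM-scaled library sizes, permutation tests were exact and used log2 CPM with a prior count of 2, and the interaction was fitted over 20 and 18 libraries. Alternatives were DESeq2 1.42.0, edgeR's exact test, other size factors and filters, a replicate block, Xist as a covariate, a fit of both regions and each library left out. On simulated data, with 200 of 13702 genes changed 2-fold, the test of 5 libraries against 4 called 182 genes, with a recovery of 87.0% and a false share of 4.40%. With 5 against 5 it called 190, with a recovery of 88.5% and a false share of 6.84%.

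The members and the 32 gene lists were chosen with earlier results of these data known, so the counts within lists describe them and are no test. Named are the targeted genes, the 15 DEGs of smallest p in each direction without library 4, list members that are DEGs in either fit, the 5 first genes called in only 1 fit in each way, the 5 first genes of the interaction, Npas4 and Mme. Other genes were named after their values were seen. Positions and promoters are from RefSeq and matched by symbol, with a position for all 50 named genes. The results of some genes are not reported here. The labels name no batch, and p values measure the spread between these libraries. Xist was above 100 CPM in 2 of 5 libraries of each genotype.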

Additional observations from a re-analysis of the deposited data

Results flagged for a closer look

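In 10 of 100 groups of 5 hippocampal libraries, over the named genes, 1 library lay farther from the others than Dixon's 95% critical value. Most of these genes were named by their values in the same libraries, among them Igfbp5 and Fbn1, whose call changed with library 4. The number of flags therefore cannot be set against a rate for genes not chosen in this way. cTKO library 4 held the highest cTKO value of Igfbp5 (543 CPM, the others 175 to 205.5) and of Fbn1 (23.0 CPM, the others 7.59 to 9.66), and both are described above with and without it. cTKO library 5 was high for Vwa3a (6.75 CPM, the others 2.29 to 3.23) and Mme (9.998 CPM, the others 4.62 to 5.39), cTKO library 1 for Nts (6.79 CPM, the others 4.44 to 4.94) and Lpin2 (153 CPM, the others 122 to 130), and cTKO library 2 for Mc4r (8.13 CPM, the others 4.44 to 5.36). Among controls, library 3 was high for Vwa5b1 (4.804 CPM, the others 2.41 to 2.86), library 5 low for Aplp2 (492 CPM, the others 629 to 677) and library 1 low for Ptchd1 (7.82 CPM, the others 8.82 to 9.20). What set these libraries apart was not tested.

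In 9 named genes the log2 fold change differed between hippocampus and neocortex in the interaction test of edgeR over 18 libraries, by 1.07 in Lrrc55, 1.62 in Penk, 1.02 in Ptchd1, 1.48 in Drd1, 0.67 in Sh2d5, 1.87 in Ppl and 1.41 in Rprm, all higher in the hippocampus, and by -1.22 in Fbn1 and -4.89 in Trpa1. The value of Trpa1 rests on a neocortex where both genotypes lay at or near the limit of the depth, and is no measure of a difference between regions.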

How the results depend on the processing

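The number of DEGs depended on the test and on single libraries more than on the scaling or the filter. With 5 libraries against 5 it was 67 (43 up-regulated, 24 down-regulated), and 332 with DESeq2 (183 and 149), 257 with edgeR's exact test (141 and 116) and 195 with both regions in 1 fit (95 and 100). Without cTKO library 4 it was 66 (41 and 25), and 331 with DESeq2 (201 and 130), 262 with the exact test (145 and 117) and 153 with both regions in 1 fit (91 and 62). With each library left out in turn it ranged from 17 (without control library 4) to 149 (without cTKO library 5) in the 5 against 5 comparison and from 25 to 158, for the same libraries, without cTKO library 4. Without control library 1, 2, 3 or 5 or cTKO library 2 it was 26, 24, 34, 40 and 31 in the former. DESeq2 and the exact test each held every one of the 67 and 66 genes. On the simulated data of 5 libraries against 4, their false shares were 17% and 15.6%, against 4.40% for the quasi-likelihood test. With 5 against 5 the shares were 15.7%, 16.7% and 6.84%. These data were a single draw with every change at 2-fold, so they cannot tell which of the added calls in the real data are false. The cause of the differences in the real data was not tested.

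With the replicate number as a block, 58 genes were DEGs in the 5 against 5 comparison (26 up-regulated, 44.8%, in place of 64.2%) and 26 without cTKO library 4 (17 and 9). Controls and cTKO mice shared only a number, with correlations of their deviations between -0.138 and 0.130 over genes, and 1 of 5 control libraries correlated best with the cTKO library of its own number. For the interaction, 8 genes passed over 20 libraries and 11 over 18, and with a replicate block within genotype 18 and 31 did, while DESeq2 gave 40 over 18 libraries.

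The 50 named genes kept their direction in all 850 pairs of gene and alternative. In 669 of them the call was as reported, in 147 it was lost and in 34 it was gained. With the replicate block, 22 of the 50 lost their call. App, Aplp1, Aplp2, Penk, Drd1, Ppl, Acvr1c, Bmp3 and Rprm were among those that kept theirs in all 17 alternatives, while Ppfia3 kept it in 3, Lamp5 in 7 and Nts and Mc4r in 8 each. Levels near 3 counts, as in Trpa1, are limited by depth.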

Other observations

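Of the genes near the targeted ones, Fxyd7 was the 1 DEG without cTKO library 4. Within 1 Mb of App, Aplp1 and Aplp2 lay 7, 53 and 7 other tested genes, with median log2 fold changes of -0.038, 0.00047 and 0.048 without cTKO library 4. At an unadjusted p under 0.05, 1, 4 and 2 of them were higher and 0, 1 and 0 lower (all genes tested, 5.98% and 5.88%). As DEGs, 0.182% of all genes tested were down-regulated. Fxyd7 lies 597 kb from Aplp1 on chromosome 7 and had a log2 fold change of -0.66 (FDR 0.0231 in edgeR's quasi-likelihood test), and it was not a DEG with library 4 (FDR 0.0709). This distance was looked at after the value of Fxyd7 was seen.

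Members of the dentate granule cell list moved in both directions without passing the test. C1ql2, a synaptic organizer of mossy fibres, had a log2 fold change of 0.80 (FDR 0.0988) and Trpc6 one of 0.45 (FDR 0.148). Dsp, which encodes desmoplakin, had one of -0.90 (FDR 0.0845), and Tdo2, the tryptophan dioxygenase, one of -1.54 (FDR 0.157), with 5.21 to 9.34 CPM in controls and 0.863 to 5.11 CPM in cTKO mice and no overlap. The genes of GABA synthesis did not pass the test either, with a log2 fold change of 0.24 for Gad1 (FDR 0.157) and 0.32 for Gad2 (FDR 0.0754).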
